A study of Mus musculus with 5 samples.

Results

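The genes described here encode the collagen-rich matrix of the tumor stroma, with the enzymes that process it and the surface markers of the fibroblasts and mural cells that make much of it. They are 37 genes fixed by name, of which 36 were found among the 13979 gene symbols shared by the 3 tables that cover all 5 libraries. RNA was sequenced from Lewis lung carcinoma (LLC), a mouse lung cancer line, with 1 library for each of 5 groups. These comprised Control, PAZA, BMN, BMN (low dose)+PAZA and BMN (high dose)+PAZA, here called low-dose and high-dose BMN/PAZA. BMN is BMN673, an inhibitor of the PARP enzymes that sense DNA breaks, and PAZA is a micelle-forming polymer that carries azacytidine, an inhibitor of DNA methyltransferases.

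According to the text of the study, LLC tumors growing in female C57BL/6 mice aged 4 to 6 weeks at purchase were collected the day after the last injection. Mice of the Control group received saline by vein. The dose was 0.25 mg/kg in the BMN, PAZA and low-dose groups and 2 mg/kg of both agents in the high-dose group, while the labels give a dose level for BMN only. The labels instead speak of cultured LLC cells, exposed to the agents for 72 h. Markers of endothelial cells summed to between 38.3 and 67.4 and markers of leukocytes to between 132 and 233 in the 5 libraries, on the scale explained next, so RNA of other cell types was present in each. Of 6 lung epithelium markers, EPCAM alone was among the shared symbols, at 0 to 3.30. Whether a library held 1 tumor or a pool is not given in the sources used here.

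Values are FPKM, that is sequenced fragments divided by gene length and by library size, with each library then set to a sum of 1000000 over the shared symbols. The tables name no unit, and FPKM was read from the form of the values. Levels can be set side by side between genes, while between libraries they also depend on the scaling. The 3 highest symbols held 29.4% to 38.1% of each sum. Because each group was a lone library, without replicates, no SD, interval or test could be given, and a difference between libraries may lie within the spread of untreated tumors. Fold changes are differences of log2(scaled FPKM + 1), and a gene is said to be past 2-fold where that difference reached 1 in size. In bulk RNA, fewer cells of a type and less RNA per cell cannot be told apart.

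Fibrillar collagens are made by fibroblasts as procollagens, trimmed outside the cell and crosslinked by lysyl oxidases into fibers. Small proteoglycans and fibril-associated collagens coat these fibers, basement membrane collagens form sheets under endothelium and epithelium, and matricellular proteins tune how cells bind the whole. In tumors, cancer-associated fibroblasts are the best known source of this matrix, which stiffens tissue and can hinder drug penetration.

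Since azacytidine blocks methylation of cytosine in the dinucleotide CG, CG sites were counted in the sequence upstream of the start. Such a count does not show whether the sites are methylated. RefSeq (GRCm38.p6) windows of 250 bases before the start were found for 23 of the 37 genes, in 28 windows. Some of these RefSeq starts lie away from the gene start in GENCODE, by up to 52843 bases (COL18A1). CG was present in 27 of the 28 (96.4%) and in 92.1% of all windows of that length, with a median of 6.5 per window (range 0 to 31), against 6.0 over all 32851 windows. The motif CCAAT, read on both strands, was in 21.4% of the windows of these genes and 33.8% of all windows, and TATAAA, also on both strands, in 17.9% and 12.4%. For 4 genes a window is printed to show the range, 5′ to 3′ on the plus strand with each CG in capitals. That of COL3A1 (chr1:45311288-45311537) has 0 CG and that of COL5A1 (chr2:27886175-27886424) has 28. That of POSTN (chr3:54360857-54361106) has 4 CG with TATAAA beginning 26 bases before the start, and another window of POSTN has 3 CG. That of FBLN1 (chr15:85205699-85205948) has 7 CG, and another window of FBLN1, 59 bases further on, has 14. None of the 4 printed windows overlapped an annotated exon in GENCODE M21.

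COL3A1: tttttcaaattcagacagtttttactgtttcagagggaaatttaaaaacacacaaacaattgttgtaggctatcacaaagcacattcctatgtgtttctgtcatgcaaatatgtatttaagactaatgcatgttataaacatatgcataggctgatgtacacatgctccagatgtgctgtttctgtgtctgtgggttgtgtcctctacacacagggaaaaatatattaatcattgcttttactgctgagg
COL5A1: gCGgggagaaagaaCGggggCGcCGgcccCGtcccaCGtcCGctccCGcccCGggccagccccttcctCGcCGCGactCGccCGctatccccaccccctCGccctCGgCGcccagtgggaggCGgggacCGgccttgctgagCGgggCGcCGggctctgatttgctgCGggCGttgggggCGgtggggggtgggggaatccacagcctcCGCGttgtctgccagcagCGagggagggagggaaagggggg
POSTN: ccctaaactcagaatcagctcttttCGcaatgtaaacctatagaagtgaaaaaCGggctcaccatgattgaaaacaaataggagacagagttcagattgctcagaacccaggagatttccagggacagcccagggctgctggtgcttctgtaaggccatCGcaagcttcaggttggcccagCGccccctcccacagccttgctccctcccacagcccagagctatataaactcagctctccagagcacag
FBLN1: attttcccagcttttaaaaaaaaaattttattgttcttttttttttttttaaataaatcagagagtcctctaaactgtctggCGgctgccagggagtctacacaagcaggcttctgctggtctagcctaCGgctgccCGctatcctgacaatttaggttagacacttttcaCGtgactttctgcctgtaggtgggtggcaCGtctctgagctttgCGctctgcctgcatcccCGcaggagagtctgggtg

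DNA methylation itself was not analysed here.

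The summed level of the 36 genes was 1436 in Control, 1710 in PAZA, 2579 in BMN, 1529 in low-dose and 1579 in high-dose BMN/PAZA. By this scaling BMN thus stood 1.80-fold above Control, 1.51-fold above PAZA, 1.69-fold above low-dose and 1.63-fold above high-dose BMN/PAZA. The low-dose and high-dose sums were 1.06 and 1.10 times that of Control. Scaling by the median ratio of symbols would divide values by 1.06 in Control, 0.972 in PAZA, 1.13 in BMN, 0.983 in low-dose and 0.885 in high-dose BMN/PAZA. That would narrow the lead of BMN and set the high-dose sum further above Control. Of the 36 genes, 28 had their highest value in BMN, where 34.9% of all symbols did. PAZA held the highest value of 6 genes (14.8% of all symbols), high-dose BMN/PAZA that of COL15A1 (9.24%), low-dose BMN/PAZA that of PCOLCE (20.3%) and Control that of none (20.7%). The lowest value fell in Control for 14 genes (16.2% of all symbols), in low-dose BMN/PAZA for 10 (15.1%), in high-dose BMN/PAZA for 8 (32.1%), in PAZA for 4 (19.7%) and in BMN for 0 (10.0%), and 6.88% of all symbols shared their lowest value between libraries. Under scaling by the median ratio of symbols, 21 of the 36 genes were highest in BMN against 21.0% of all symbols, and without the 100 highest symbols in the sums 21 against 21.4%. Under both of these scalings COL4A1, COL4A2, COL5A1, COL6A3, SPARC, THBS1 and PCOLCE joined COL15A1 as highest in high-dose BMN/PAZA. COL5A2 was then highest in PAZA.

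**Figure D1:**
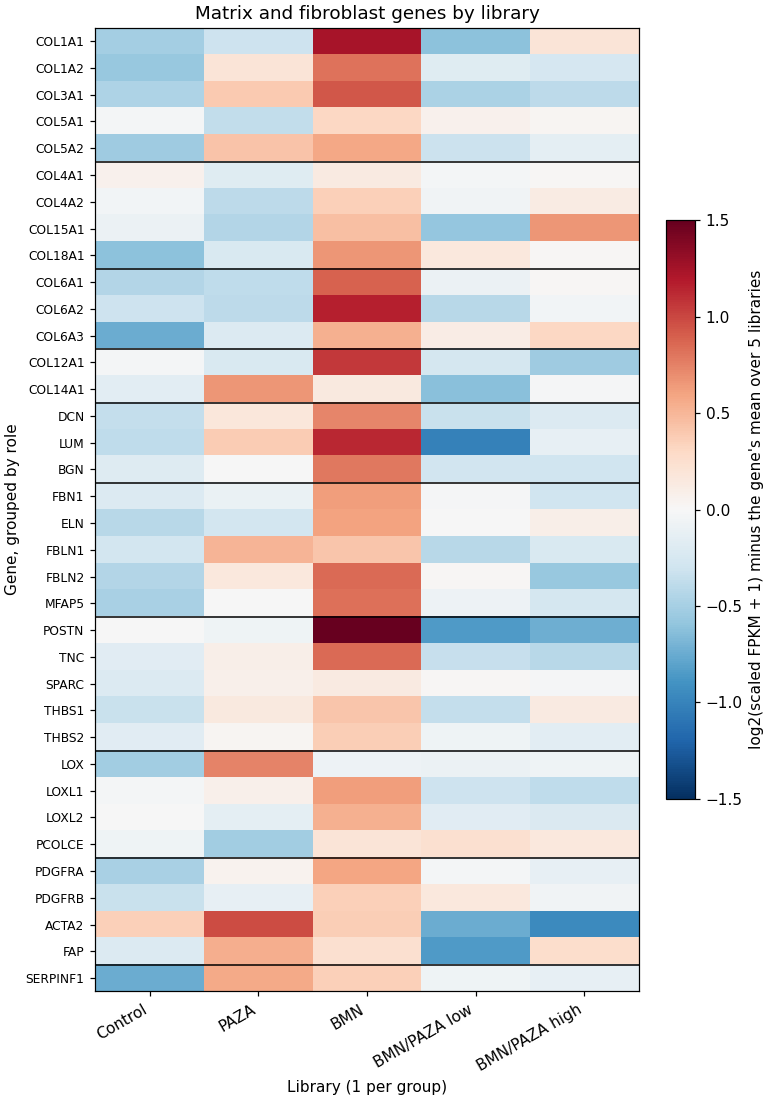
Level of 36 matrix and fibroblast genes (rows, grouped by role) in the 5 libraries (columns, 1 per group), as log2(scaled FPKM + 1) minus the mean of that gene over the libraries. Red marks values above the mean and blue values below it, and the BMN column is the reddest, with 28 of 36 genes at their highest there.

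Among the fibrillar collagens, the chains of the main tensile fibers, the 3 chains of type I and type III collagen were highest in BMN. The summed level of the 5 fibrillar genes was 281 in Control, 467 in PAZA, 712 in BMN, 289 in low-dose and 312 in high-dose BMN/PAZA, a 2.53-fold difference between BMN and Control. COL3A1, the chain of type III collagen of soft tissue, stood at 208 in Control, 378 in PAZA, 552 in BMN, 208 in low-dose and 220.1 in high-dose BMN/PAZA. It was the most abundant of the 36 genes by its mean over libraries, and both BMN and PAZA stood apart from the other 3 libraries. COL1A1, the alpha-1 chain of type I collagen (GRCm38 chr11:94936224-94953042), had 15.5 in Control, 18.1 in PAZA, 54.7 in BMN, 14.5 in low-dose and 26.0 in high-dose BMN/PAZA. COL1A2, its alpha-2 partner (chr6:4504814-4541544), had 16.1, 28.0, 43.5, 21.4 and 20.3 in the same order, which is kept in all lists of values that follow. Type I collagen is a trimer with more alpha-1 than alpha-2 chains, and the ratio of COL1A1 to COL1A2 ranged from 0.647 in PAZA through 0.675 in low-dose BMN/PAZA and 0.967 in Control to 1.26 in BMN and 1.28 in high-dose BMN/PAZA.

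Type V collagen nucleates type I fibrils, and its chains behaved differently from each other. COL5A2 had 8.78, 18.0, 20.1, 10.3 and 11.8, again with PAZA and BMN above the rest. COL5A1 had 32.6, 25.6, 41.7, 34.8 and 34.0, so that PAZA was its lowest library. Their ratio, COL5A1 to COL5A2, ranged between 1.43 in PAZA and 3.72 in Control. COL3A1 and COL5A2 lie tail to tail on chromosome 1, with 24614 bases between them, and both stood higher in PAZA (0.86 and 0.95 on the log2 scale) and in BMN (1.40 and 1.11) than in Control.

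The basement membrane collagens, whose sum is mostly COL4A1 and COL4A2, differed among themselves. Their sum was 362 in Control, 317 in PAZA, 465 in BMN, 374 in low-dose and 395 in high-dose BMN/PAZA. COL4A1 and COL4A2 encode the chains of the type IV network, and COL4A1 had 219.9, 185, 230.2, 207 and 212. Its highest value was 1.05 times the next, and its log2 fold change in BMN against Control of 0.07 turned to −0.03 under both other scalings. COL4A2 had 93.0, 73.1, 124, 93.0 and 105, with PAZA lowest for each chain. The genes lie on opposite strands of chromosome 8 and overlap by 22 bases at their starts. COL18A1, the source of endostatin, had 39.2, 51.4, 96.4, 67.8 and 61.2, with all 4 treated libraries above Control and BMN past 2-fold above it. COL15A1, its close relative, had 9.69, 7.39, 14.5, 6.59 and 17.0, and by this scaling alone was the only one of the 36 genes highest in high-dose BMN/PAZA. Under both other scalings COL4A1 and COL4A2, among other genes, were highest there as well. The ratio of COL3A1 to COL4A1, interstitial against basement membrane collagen, was 2.40 in BMN and 2.04 in PAZA, and 0.947, 1.01 and 1.04 in Control, low-dose and high-dose BMN/PAZA.

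Type VI collagen forms beaded filaments around cells, and its 3 genes summed to 42.0, 51.3, 109.7, 62.4 and 71.3. COL6A1 had 18.0, 18.7, 46.4, 23.1 and 24.9. COL6A2, its neighbor on chromosome 10 with 85161 bases between them, had 5.43, 5.09, 16.8, 4.96 and 6.72. BMN thus stood 2.31-fold above the next library on the log2(scaled FPKM + 1) scale. Under median-ratio scaling high-dose BMN/PAZA lay 0.89 under BMN on the log2 scale, which is less than 2-fold. COL6A3 had 18.6, 27.5, 46.5, 34.4 and 39.7, with every treated library above Control. It was the 1 gene past 2-fold higher in high-dose BMN/PAZA against Control. Of the fibril-associated collagens, COL12A1 had 20.8, 17.9, 45.6, 17.5 and 14.3, with BMN alone above the rest. COL14A1 was scarce, at 0.909, 2.39, 1.35, 0.379 and 1.11, and was highest in PAZA.

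The small leucine-rich proteoglycans bind collagen fibrils and set their spacing. DCN, decorin, had 58.3, 85.0, 126, 59.2 and 65.0. LUM, lumican, had 8.54, 15.1, 26.2, 5.15 and 10.3, a range of 5.09-fold between low-dose BMN/PAZA and BMN. BGN, biglycan, had 31.1, 35.6, 62.5, 29.1 and 28.9, with only BMN far from the others. DCN and LUM are neighbors on chromosome 10, on the same strand with 46984 bases between them, and their ratio was 4.80 in BMN and 11.5 in low-dose BMN/PAZA. FMOD, fibromodulin, was not among the shared symbols. In the deposited table of BMN and low-dose BMN/PAZA it stood at 0.293 FPKM in BMN and was listed at 0 in low-dose BMN/PAZA.

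Of the elastic fiber and fibulin genes, 4 of 5 were highest in BMN, where 34.9% of all symbols were. FBN1, fibrillin-1 of the microfibrils, had 21.9, 23.7, 39.8, 25.2 and 20.5. FBLN2 had 7.04, 11.2, 18.6, 10.1 and 6.36, and MFAP5, a microfibril-associated glycoprotein, had 1.82, 2.90, 5.97, 2.73 and 2.28. These 3 genes had BMN at least 1.5-fold above every other library, as 3.58% of all symbols did. Under median-ratio scaling MFAP5 kept that margin and FBN1 and FBLN2 did not. FBLN1 had 2.57, 5.19, 4.77, 2.23 and 2.69, with PAZA and BMN close together and above the rest. ELN, tropoelastin, was listed at 0 in Control and stood at 0.101, 1.02, 0.321 and 0.414 in the treated libraries, so that no ratio to Control is given.

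Matricellular proteins are matrix proteins that signal to cells more than they carry load. POSTN, periostin (chr3:54361109-54391037), had the widest gap of the 36 genes between its highest library and the next, with 72.3 in Control, 69.2 in PAZA, 232 in BMN, 39.8 in low-dose and 43.5 in high-dose BMN/PAZA. BMN stood 3.21 times above the next library and 5.83 times above the lowest, and both BMN/PAZA libraries lay under Control and PAZA. TNC, tenascin-C, had 35.97, 43.2, 73.5, 31.5 and 30.01, also with both BMN/PAZA libraries lowest. SPARC, a collagen-binding glycoprotein, was abundant and nearly level, at 225, 274, 284, 263 and 255. THBS1, thrombospondin-1, had 35.6, 49.8, 60.6, 35.0 and 49.4. THBS2 had 16.1, 18.7, 23.8, 17.4 and 16.3.

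Of the 4 genes that process and crosslink collagen, 2 were highest in BMN, as 34.9% of all symbols were. PCOLCE, which enhances removal of the procollagen C-propeptide, had 165, 120.1, 198, 204 and 193, with PAZA lowest and its highest value only 1.03 times the next. LOX, lysyl oxidase, had 9.62, 24.6, 13.5, 13.4 and 13.6, so that PAZA stood 1.81 times above the next library. LOXL1 had 1.53, 1.73, 2.997, 1.09 and 0.985, and LOXL2 had 3.58, 3.16, 5.63, 3.10 and 2.95, both with BMN highest and high-dose BMN/PAZA lowest. LOX was thus highest in PAZA, and LOXL1 and LOXL2 in BMN.

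The receptors and markers of fibroblasts and mural cells were low in level. PDGFRA, the receptor that marks fibroblasts, had 6.52, 9.94, 14.9, 9.37 and 8.72, with all treated libraries above Control. PDGFRB, which marks pericytes as well, had 0.914, 1.22, 2.10, 1.70 and 1.33, also with all treated libraries above Control and BMN highest. ACTA2, smooth muscle actin of myofibroblasts and mural cells, had 6.20, 10.1, 6.30, 2.36 and 1.91. FAP, a serine protease of activated fibroblasts, had 1.80, 3.72, 2.80, 0.793 and 2.86. ACTA2 did not share the BMN peak of the matrix genes, since its BMN value was at the level of Control and its PAZA value was highest. SERPINF1, the secreted serpin PEDF, had 18.1, 46.2, 39.9, 29.5 and 28.4, with every treated library above Control and PAZA highest.

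**Figure D2:**
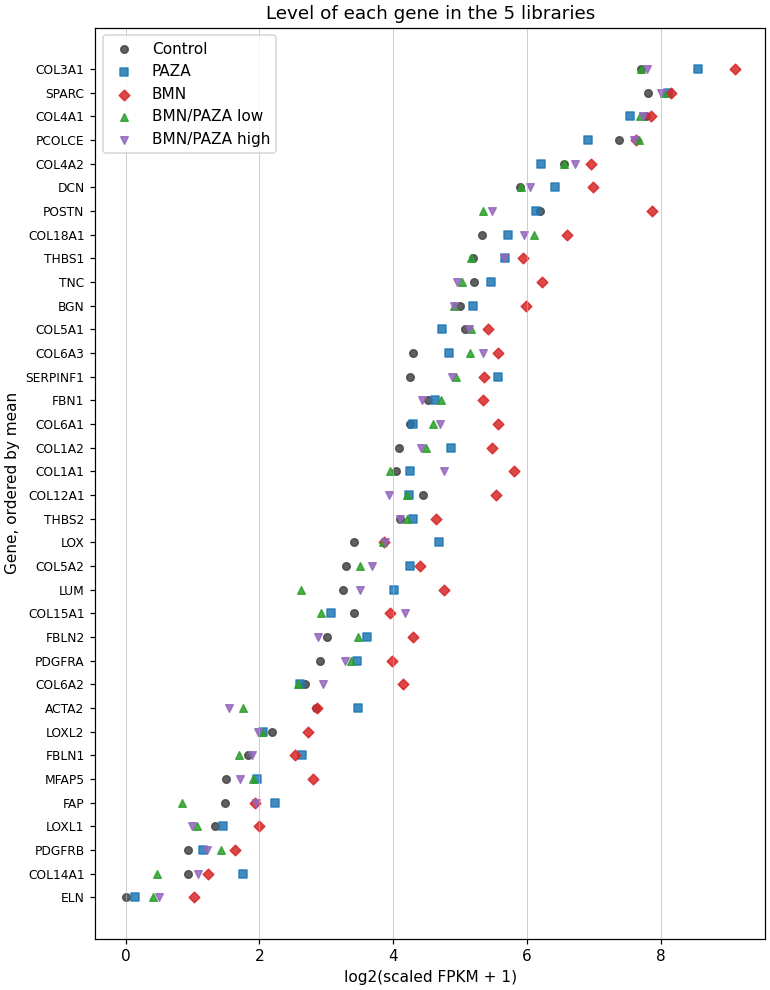
Level of each of the 36 genes (rows, ordered by mean) in the 5 libraries, as log2(scaled FPKM + 1), with 1 symbol per library. BMN (red diamonds) lies to the right of the other libraries for most genes and farthest for POSTN, while COL4A1 and SPARC show the least spread.

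BMN against Control asks what the PARP inhibitor alone changed. All 36 genes were higher in BMN, with a median log2 fold change of 0.998 against 0.09 over the 13704 symbols present in either library. Of the 36 genes, 18 were past 2-fold higher, where 4.66% of all symbols were, and 0 were past 2-fold lower, where 2.25% were. The largest differences were those of COL1A1 (1.75 on the log2 scale), POSTN (1.67) and LUM (1.51), and the smallest those of ACTA2 (0.02), COL4A1 (0.07) and PCOLCE (0.26). Over all symbols 59.9% were higher in BMN by this scaling, and 51.6% under median-ratio scaling. The latter left 34 of 36 genes higher, with COL4A1 and ACTA2 on the other side of 0, and 14 past 2-fold, as 3.86% of all symbols were. On the log2(scaled FPKM + 1) scale BMN stood at least 1.5-fold above each of the other 4 libraries for 12 genes, as for 3.58% of all symbols. These were COL1A1, COL1A2, COL6A1, COL6A2, COL12A1, LUM, BGN, FBN1, FBLN2, MFAP5, POSTN and TNC, and for COL1A1, COL6A2, COL12A1 and POSTN the margin was over 2-fold. Under median-ratio scaling only COL1A1, COL6A2, COL12A1, MFAP5 and POSTN kept the 1.5-fold margin, and POSTN alone stayed over 2-fold.

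PAZA against Control asks what the azacytidine carrier alone changed. The median of the 36 genes was 0.27 against −0.07 over all 13979 symbols, with 27 genes higher, as 43.6% of all symbols were, and 9 lower, of which COL6A2 and POSTN (sizes up to 0.08) changed side under another scaling. SERPINF1 (1.31 on the log2 scale) and LOX (1.27) were past 2-fold higher, where 3.47% of all symbols were, followed by COL5A2 (0.95), and 0 genes were past 2-fold lower, against 3.53%. PCOLCE (−0.46), COL15A1 (−0.35) and COL4A2 (−0.34) were lowest. The fibrillar genes other than COL5A1, the proteoglycans and the fibroblast markers stood on the higher side, and 3 of the 4 basement membrane genes on the lower.

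Low-dose BMN/PAZA against Control gave a median of 0.01 over the 36 genes, with 18 higher, as 47.2% of all symbols were, and 18 lower, and 5 of those lower, by at most 0.09, turned higher under both other scalings, leaving 23 higher and 13 lower. None was past 2-fold higher, where 3.65% of all symbols were, and ACTA2 (−1.10 on the log2 scale) was past 2-fold lower, where 3.54% were. COL6A3 (0.85), COL18A1 (0.78) and SERPINF1 (0.68) were the highest, and POSTN (−0.85) and FAP (−0.64) followed ACTA2 at the low end. High-dose BMN/PAZA against Control gave a median of 0.20 against −0.17 over all symbols, with 26 genes higher, as 35.5% of all symbols were, and 5 that were lower by at most 0.25 changed side under another scaling. COL6A3 (1.05) was past 2-fold higher (3.2% of all symbols) and ACTA2 (−1.31) past 2-fold lower (4.95%). COL15A1 (0.75) and COL1A1 (0.71) came next on the higher side, and POSTN (−0.72) and COL12A1 (−0.51) on the lower. These comparisons share the Control library with those of BMN and PAZA.

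**Figure D3:**
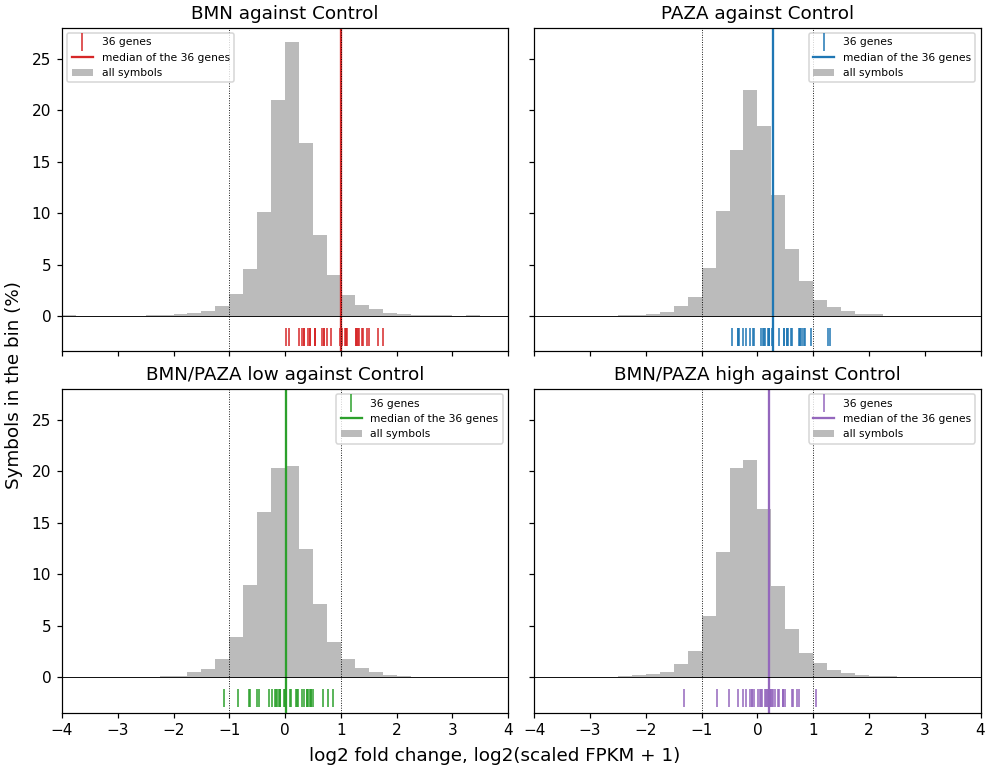
Log2 fold change against Control in 4 panels, 1 per treated library, with the percentage of all shared symbols in each bin of 0.25 (gray bars), the 36 genes (ticks under the axis) and their median (colored line). Dotted lines mark 2-fold, and the median of the 36 genes is at 0.998 in BMN, 0.27 in PAZA, 0.01 in low-dose and 0.20 in high-dose BMN/PAZA.

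Low-dose BMN/PAZA against BMN compares the PARP inhibitor combined with the carrier to the inhibitor alone, at an equal dose. By the text of the study BMN was loaded into PAZA, so its delivery may differ too. That cannot be told apart here from an effect of azacytidine. Of the 36 genes, 35 were lower in low-dose BMN/PAZA, as 60.7% of all symbols were, with a median of −0.83 against −0.14 over all symbols, and 12 were past 2-fold lower, where 5.86% of all symbols were, with 0 past 2-fold higher (3.22%). POSTN (−2.51 on the log2 scale), LUM (−2.15) and COL1A1 (−1.85) were the lowest. PCOLCE (0.04) was the 1 gene higher, and LOX (−0.01) and SPARC (−0.11) were nearest to it, and the last 2 with COL4A1 changed side under another scaling. Within the deposited table that holds both libraries, without further scaling, the median over all 37 genes was −0.60 and 7 were past 2-fold lower, beside a median of 0.07 and 2.22% past 2-fold lower over all symbols there. Under median-ratio scaling, where 3.28% of all symbols were past 2-fold lower, 6 genes stayed past it, namely POSTN, LUM, COL1A1, COL6A2, COL3A1 and COL12A1.

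High-dose BMN/PAZA against BMN gave a median of −0.71 against −0.27 over all symbols, with 33 of 36 genes lower, as 72.0% of all symbols were, and 13 past 2-fold lower, where 6.89% of all symbols were. POSTN (−2.39 on the log2 scale), COL12A1 (−1.60) and FBLN2 (−1.42) were the lowest, COL15A1 (0.22), FAP (0.02) and LOX (0.01) the highest, and 0 genes were past 2-fold higher (2.33%). With median-ratio scaling POSTN, COL12A1, FBLN2 and ACTA2 stayed past 2-fold lower, as 3.14% of all symbols were, and 8 genes changed side, none with a difference above 0.29 in size. Both comparisons share the BMN library, so its high values enter each.

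Low-dose BMN/PAZA against PAZA gave a median of −0.14 against 0.03 over all symbols, with 26 genes lower, as 45.8% of all symbols were. ACTA2 (−1.73 on the log2 scale), FAP (−1.40), LUM (−1.39) and COL14A1 (−1.30) were past 2-fold lower, where 2.78% of all symbols were, and none past 2-fold higher (2.45%). PCOLCE (0.76), COL5A1 (0.43) and COL18A1 (0.39) were the highest. Low-dose against high-dose BMN/PAZA, the comparison of dose, gave a median of −0.01 against 0.13 over all symbols, with 18 genes on each side, where 65.5% of all symbols were higher at the low dose, of which 12 that were higher by at most 0.15 turned lower under both other scalings, leaving 6 higher and 30 lower. COL15A1 (−1.25) and FAP (−1.11) were past 2-fold lower at the low dose (2.34% of all symbols), none was past 2-fold higher (3.38%), and LUM (−0.88) was next. FBLN2 (0.59), FBN1 (0.29) and COL12A1 (0.27) were the highest.

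**Figure D4:**
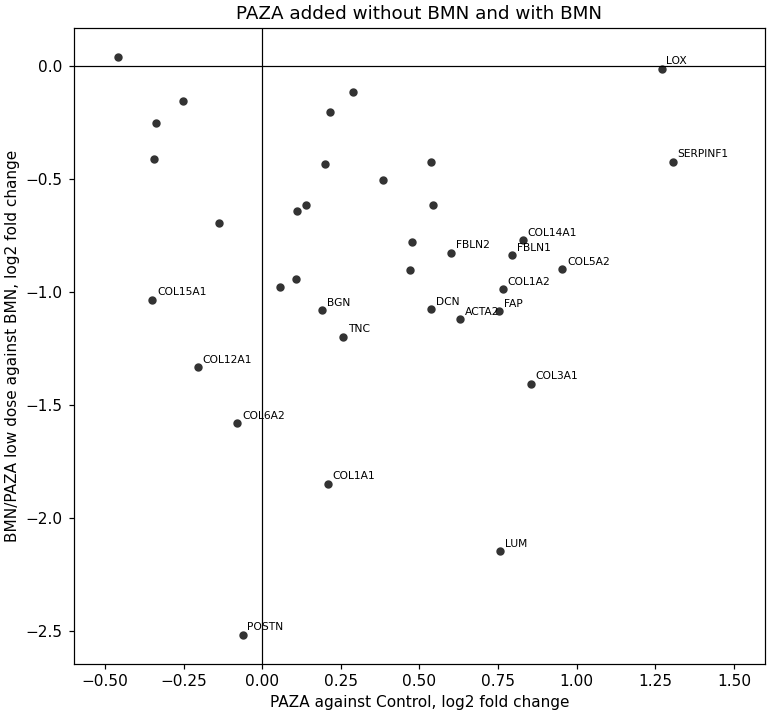
Log2 fold change of PAZA against Control (x axis) and of low-dose BMN/PAZA against BMN (y axis) for the 36 genes, 1 point per gene, from 4 different libraries. Most points lie to the right of 0 on the x axis (27 genes) and under 0 on the y axis (35 genes), with POSTN, LUM and COL1A1 lowest.

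Genes for the folding, modification and trimming of collagen were nearly level between BMN and Control as a sum. Of 27 listed names, 22 were found, the other 5 being older aliases, and they summed to 2453 in Control and 2531 in BMN, a ratio of 1.03. Their median log2 fold change in BMN against Control was 0.03 against 0.09 over all symbols. Of the 22, 0 were past 2-fold, where 4.66% of all symbols were higher and 2.25% lower. With so few genes, 0 lies near those shares. The ratio was 1.05 without P4HB, which made up most of the sum, 1.03 for the 16 genes acting inside the cell and 1.33 for the 6 that trim procollagen outside it. SERPINH1, the collagen chaperone HSP47, had 132, 225, 188, 211 and 192, and P4HB, the beta subunit of prolyl hydroxylase and a general disulfide isomerase, had 1385, 1384, 1415, 1205 and 945.

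Of 22 genes of the TGF-beta pathway, the main known inducer of matrix genes, 3 were past 2-fold higher in BMN against Control, where 4.66% of all symbols were, with a median of 0.03. They were TGFBI (34.9, 56.3, 76.4, 41.1 and 32.7), SMAD3 (2.36, 3.37, 6.10, 1.81 and 3.15) and TGFB3 (1.33, 1.07, 3.82, 1.79 and 2.08). TGFB1 itself had 17.6, 18.4, 17.6, 11.2 and 17.0. Of 15 receptors for matrix, 0 were past 2-fold in either direction, where 4.66% of all symbols were higher and 2.25% lower. Their median was 0.11 against 0.09 over all symbols. Of 40 other collagen and matrix genes, COL23A1 (1.18 on the log2 scale) and MFAP2 (1.51) were past 2-fold higher and COL9A1 (−1.03) and EMILIN1 (−1.10) lower, with a median of 0.15, and these 2 of 40 in each direction stand beside 4.66% and 2.25% of all symbols. FN1, fibronectin, a product of many tumor cells, had 1098, 915, 981, 1131 and 836, more than any of the 36 genes, and was highest in low-dose BMN/PAZA.

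Of 9 fibroblast markers found, 5 are among the 36 genes. The other 4 were THY1, at 62.6, 87.2, 141, 56.8 and 51.3, DPT, at 0.814, 4.11, 6.68, 1.34 and 1.48, PDPN, at 53.0, 79.8, 58.2, 56.0 and 52.4, and PI16, at 0.532, 0.623, 0.761, 0.0837 and 0.186. THY1 and DPT were past 2-fold higher in BMN than in Control, where 4.66% of all symbols were. The 10 mural cell markers summed to 18.8, 29.2, 37.3, 27.3 and 31.8 and the 8 endothelial markers to 38.3, 67.4, 63.4, 45.9 and 46.7, in each case with Control lowest. The 6 leukocyte markers summed to 153, 184, 233, 152 and 132, and 7 macrophage markers to 476, 529, 540.3, 487 and 378.

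Markers of epidermis, skeletal muscle and fat also differed between libraries, and where that RNA came from was not tested. Of 7 epidermis markers 6 were found, and they summed to 88.6 in Control, 9.18 in PAZA, 245 in BMN, 1.96 in low-dose and 17.0 in high-dose BMN/PAZA, with KRT5, a keratin of the basal layer, at 67.3 in BMN and at 0 in low-dose BMN/PAZA. The 8 skeletal muscle markers summed to 15.4, 62.4, 202, 15.8 and 237, and all were past 2-fold higher in BMN than in Control, where 4.66% of all symbols were. BMN was thus highest in epidermis markers and second to high-dose BMN/PAZA in muscle markers. Of 7 adipocyte markers 5 were found, with a sum of 45.8, 114, 92.7, 55.9 and 66.7. Cartilage and bone markers were at or near 0, with 2 of 6 found and sums of 0 to 0.206. Skin, muscle and fat hold fibroblasts of their own, and the part of such tissue in the matrix result was not tested.

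**Figure D5:**
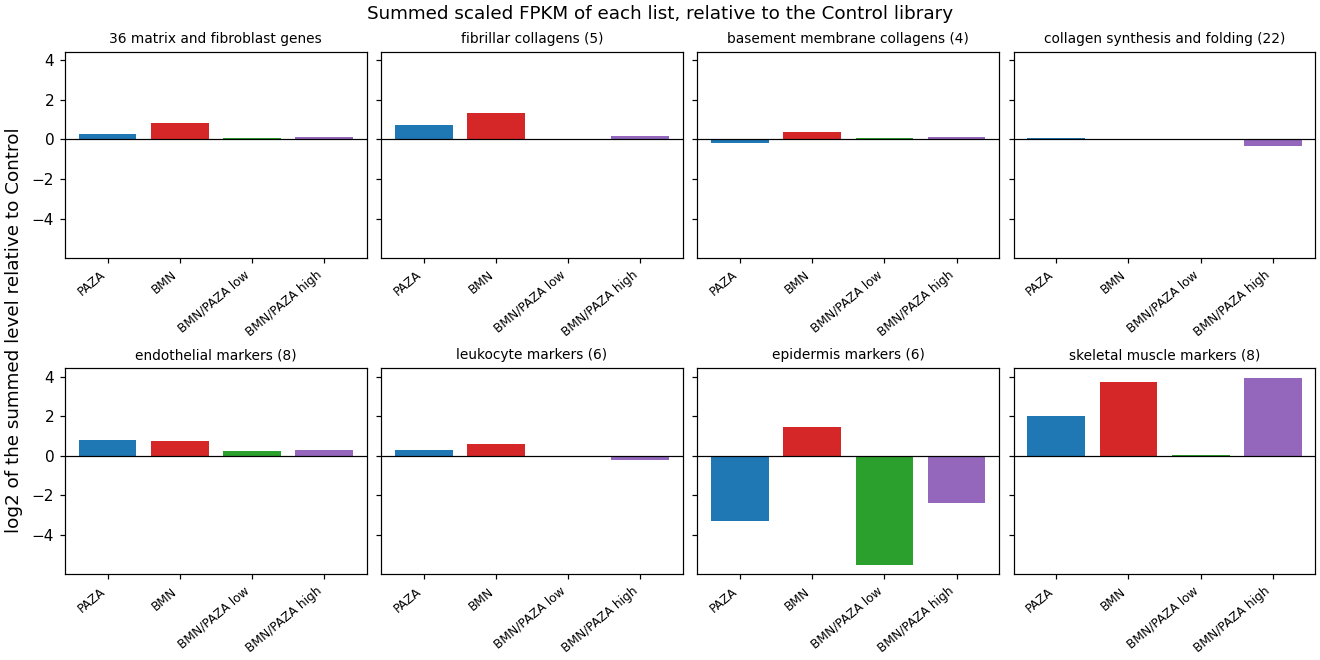
Log2 of the summed scaled FPKM of a list in each treated library relative to Control, with 1 panel per list, the number of genes in parentheses and 1 bar per library. Fibrillar collagens are highest in BMN and PAZA, the collagen synthesis list stays near 0 in BMN, and epidermis and muscle markers differ far more than the matrix genes.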

How the data were processed

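RNA sequencing of 5 LLC groups with 1 library each was analysed. Per the submitters' processing notes, reads were processed with HISAT2, StringTie and GRCm38, with no versions given. The authors deposited 5 tables of 2 groups each, whose unit is not named and which were read as FPKM from their form. Without counts in the tables the depth is unknown, and no counting interval was computed.

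Control and PAZA were taken from their common table, BMN and high-dose BMN/PAZA from theirs, and low-dose BMN/PAZA from its table with the high dose. The row with the highest mean was used per symbol, and each column was scaled to a sum of 1000000 over the 13979 shared symbols. These sums were 520108 to 1904030 before scaling, and the 3 highest symbols held 29.4% to 38.1% of them. Values of the same library in different tables differed by a constant for most symbols, with up to 377 of 22092 symbols and 0 of the 36 genes more than 0.5% from it. Fold changes used a pseudocount of 1, and symbols at 0 in both libraries were left out. All genes of the list are named, with the 3 highest and 3 lowest per comparison. The members and lists were chosen with earlier results of these data known. Coordinates are from GENCODE M21 (GRCm38) and promoter windows from RefSeq.

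Alternatives were a pseudocount of 0.1, other scalings, a minimum mean of 1, summed rows, genes off a constant left out, and the deposited values, of which unscaled values against Control across tables were added after seeing the data. The main scaling and the fold changes were tested on simulated libraries with a change put into 200 genes. The other steps were not simulated. Python 3.11.15, numpy 2.4.6, pandas 2.3.3 and matplotlib 3.10.9 were used.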

Additional observations from a re-analysis of the deposited data

Results flagged for a closer look

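For 15 pairs of contrasts, a gene moved in opposite directions when an agent was added without and with the other agent, by 1.5-fold or more each way. Every contrast rests on 1 library per side, and the difference was not tested. By the text of the study BMN was loaded into PAZA in the combination, so delivery of BMN may differ too. Values are differences of log2 fold changes, with the other agent (low dose) minus without it.

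For PAZA added to BMN against PAZA added to Control, LUM gave −2.90, from 0.76 without BMN to −2.15 with it, and COL3A1 gave −2.26, from 0.86 to −1.40. COL5A2 gave −1.85, FAP −1.84, COL1A2 −1.75, ACTA2 −1.75, FBLN1 −1.63, COL14A1 −1.60 and FBLN2 −1.43.

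For BMN added to PAZA against BMN added to Control, POSTN gave −2.45, from 1.67 without PAZA to −0.78 with it. SERPINF1 gave −1.73, from 1.10 to −0.63. The values of LUM (−2.90), COL3A1 (−2.26), COL5A2 (−1.85) and FBLN1 (−1.63) are the same as above by construction, since the same 4 libraries enter, and their directions were again opposite. Of all symbols, 1.94% were likewise higher with PAZA without BMN and lower with it, beside 9 of the 36 genes, and 2.11% higher with BMN without PAZA and lower with it, beside 6 of the 36.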

How the results depend on the processing

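No paired analysis was possible because each group has 1 library. Of 112 alternative values of the medians and 2-fold counts, 96 stayed within the tolerance (0.25 for a median, 1.5-fold for a count) and 16 moved; the cause was not tested. A pseudocount of 0.1 gave 6 genes past 2-fold for PAZA against Control, 4 for low-dose BMN/PAZA against Control and 19 for low-dose BMN/PAZA against BMN. Sums without the 100 highest symbols gave 4 for PAZA against Control, 4 for high-dose BMN/PAZA against Control (median 0.47), 4 for low against high dose and 4 for high-dose BMN/PAZA against BMN. Median-ratio scaling gave 6 for low-dose and 4 for high-dose BMN/PAZA against BMN, with a median of −0.39 for the latter. Deposited values gave 7 for low-dose and 7 for high-dose BMN/PAZA against BMN, 0 for low-dose BMN/PAZA against Control, and 29 for low against high dose, all higher although the reported 2 were lower (median 1.53 against −0.01). There the median of all symbols was 1.44 because the low-dose column of that table is larger by a constant. BMN against Control stayed within the tolerance under every alternative run, with 12 (deposited values) to 20 (pseudocount 0.1) genes past 2-fold higher beside the 18 reported. Summing rows left every count as it was and moved no median by as much as 0.01, and leaving out genes off a constant changed nothing, since none of the 36 was off. Unknown depth limits the low genes ELN, COL14A1, PDGFRB, FAP and LOXL1 most.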
